A study of Mus musculus with 6 samples.

Results

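The genes described here encode 9 enzymes that make serine and pass its side-chain carbon to folate: Phgdh, Psat1, Psph, Shmt1, Mthfd1, Shmt2, Mthfd2, Mthfd1l and Aldh1l2. They were taken by name from the 24885 rows of a deposited table of raw 3′ RNA-seq read counts, where NCBI gene numbers were paired with symbols through RefSeq, and all 9 were found. The study compared mouse Eμ-Myc lymphoma cells, which carry a Myc transgene under an immunoglobulin enhancer, with and without the miR-17~92 microRNA cluster. The cells labelled del (3 libraries) were Cre-ERT2+ and carried floxed alleles of the cluster (miR-17~92 fl/fl). They were given 250 nM 4-OHT, the ligand that activates the Cre fusion, for 4 days and then subcloned to obtain cells lacking it. The cells labelled fl (3 libraries) had the same genotype with the floxed alleles kept. Both were grown for 48 hours over irradiated Ink4a-null fibroblast feeders in medium with serum. No label says how many clones or cultures stand behind the 3 libraries of a group, so a p-value here speaks only to how these libraries vary, and that variation could be technical. No 4-OHT dose or time is given for fl. As labelled, treatment, subcloning and loss of the cluster came together in del and cannot be told apart. The title names tumour metabolism as the subject, and the comparison asks which of these enzyme transcripts differed once the cluster had been deleted.

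Serine is made from the glycolytic intermediate 3-phosphoglycerate in a short chain of reactions run by PHGDH, PSAT1 and PSPH. Serine hydroxymethyltransferase then moves a carbon from serine to tetrahydrofolate and leaves glycine, in the cytosol through SHMT1 and in mitochondria through SHMT2. Folate-bound carbon units are interconverted by MTHFD1 in the cytosol. In mitochondria they are oxidised or released as formate by MTHFD2, MTHFD1L and ALDH1L2. The units feed the synthesis of purines and thymidylate. In lymphoid and other dividing cells the pathway is known for its demand during growth, and MYC and the stress factor ATF4 are known to drive several of its genes.

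The deleted cluster lies in the transcript Mir17hg, which was at 167, 151.6 and 206.0 CPM in the del libraries, against 252.02, 262.5 and 262.3 CPM in fl. Reads from the transcript end, past the cluster, do not check its deletion. Library totals were 2121796 to 3738720 counts in del and 6554423 to 9580630 in fl, so that depth and group went together (fl was 2.65 times as deep on average). The labelled cell type was checked against markers. The B cell genes Cd79a and Pax5 averaged 152 and 75.3 CPM in del, but 8.12 and 2.98 CPM in fl. The 9 B cell markers used summed to 1116 to 1294 CPM in del and 48.6 to 56.7 CPM in fl. Of these, 8 of 8 tested were higher in del, so the fl libraries were low in these transcripts of the B lineage. Ms4a1 was not tested, with 1 count in del replicate 3, 2 in fl replicate 3 and none elsewhere. The 10 myeloid markers summed to 2534 to 3335 CPM in del and 295.1 to 306.03 CPM in fl, with 6 of 8 tested higher and 2 lower, and Mpo at 0 in all libraries. Csf1r averaged 128 and 6.88 CPM and Itgam 340.6 and 3.07 CPM in del and fl. The lower ones were Fcgr3, which at 81.3 CPM in del and 243.9 CPM in fl made up most of the fl sum, and Cd14 at 1.95 and 3.93 CPM. The 8 epithelial markers summed to 0.474 to 1.32 CPM in del and 371.2 to 411.2 CPM in fl (3 of 3 tested lower in del, with Epcam and Krt18 among them, and Cdh1, Cldn7 and Esrp1 at 0 throughout). Fibroblast markers, which feeder cells would carry, summed to 10.8 to 20.8 CPM in del and 1.72 to 5.42 CPM in fl (2 of 3 tested higher, Col1a1 at 3.12 and 0.466 CPM and Col3a1 at 0.0901 and 0.0373 CPM in del and fl). T and NK cell markers summed to 99.01 to 120.1 CPM in del and 38.5 to 42.7 CPM in fl (1 of 3 tested higher and 2 lower), with Cd3e at 0 throughout and Cd3d at 0.0878 and 1.21 CPM. Most of that del sum was Cd2 (104.7 CPM in del and 13.1 CPM in fl), while Cd5 (3.30 and 23.3 CPM) and Lck (0 and 3.24 CPM) were lower in del. These markers moved together with the group in which the enzymes were compared, and their part in the values below was not tested. In bulk RNA, fewer cells of a type and less RNA per cell cannot be told apart.

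Of the 9 enzyme transcripts, 8 had enough counts to be tested, and 7 of these 8 were lower in del. The 3 genes of serine synthesis fell furthest, by 2.31-fold to 5.17-fold, while the folate enzymes that fell did so by 1.46-fold to 1.73-fold. Mthfd1l did not pass the test, and Aldh1l2 had no count in any library. Lower calls were common in this comparison: 32.6% of the 10260 genes tested were lower in del and 32.5% were higher, from edgeR's quasi-likelihood F test at an adjusted p of 0.05 over all of them (Benjamini-Hochberg). All 3 del libraries lay below all 3 fl libraries for 7 members, where 35.7% of all tested genes did so. The median log2 fold change of the 8 tested members was -0.73, against -0.0035 for all tested genes and -0.98 for the genes called lower. Levels are given in CPM, read counts scaled to library size with TMM factors and not divided by length, since reads come from transcript ends. A log2 fold change is the level in del over that in fl, so it is negative where del was lower, and stands with its standard error.

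**Figure D1:**
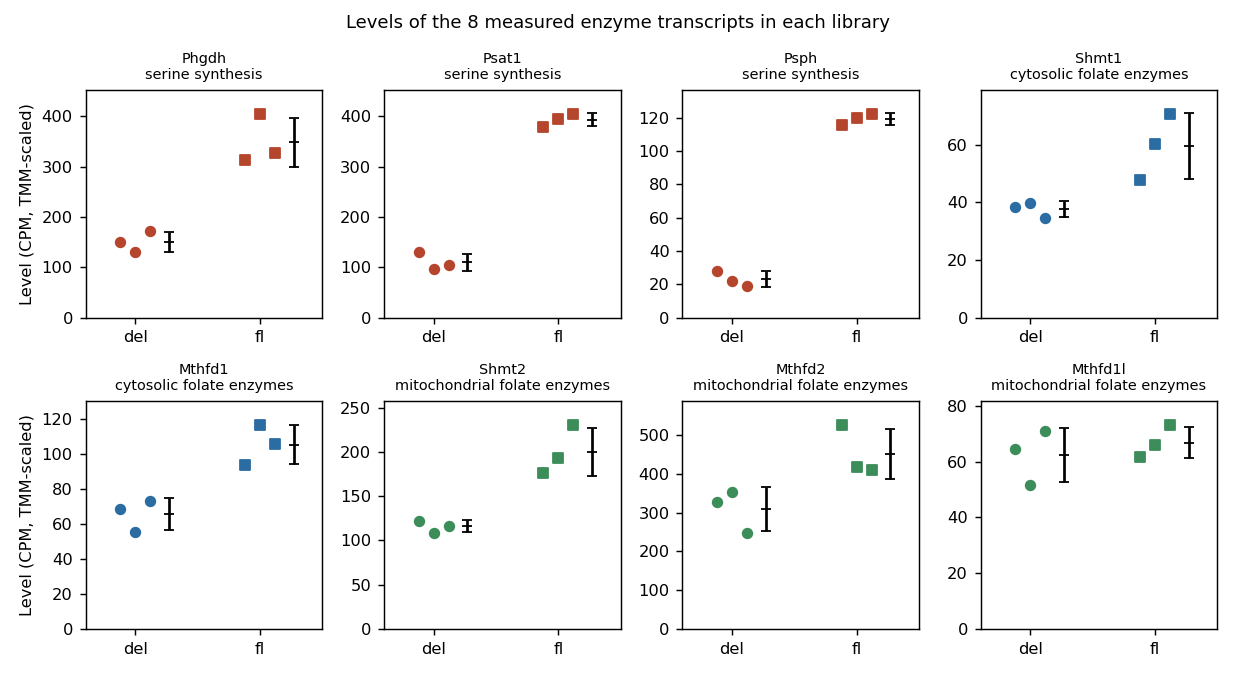
Level (CPM, y axis from 0) of each measured enzyme transcript in the 3 del libraries (circles) and the 3 fl libraries (squares), with mean and SD beside them, coloured by role. The del libraries lie below the fl libraries in every panel except that of Mthfd1l, where 51.6 to 70.8 CPM in del overlaps 61.7 to 73.0 CPM in fl.

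Phgdh (gene number 236539, chromosome 3 from 98313171 to 98339969 in GRCm38) encodes phosphoglycerate dehydrogenase, which opens the serine route. It was at 149, 130.3 and 171 CPM in the del libraries and at 313, 405 and 327 CPM in the fl libraries. The groups lay well apart, and fl replicate 2 was the highest library. The log2 fold change was -1.21 ± 0.17 (95% interval -1.58 to -0.84, adjusted p = 0.000194). Once the trend of fold changes on transcript length and GC content was taken out, a setting chosen after seeing the data, it was -0.75 (adjusted p = 0.00345).

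Psat1 (107272, chromosome 19 from 15905123 to 15925059) encodes phosphoserine aminotransferase, the enzyme of the next step. Its del libraries held 129, 96.2 and 104 CPM, and its fl libraries 379, 395 and 404 CPM. The fl libraries lay close together and far above those of del. Its log2 fold change was -1.84 ± 0.15 (95% interval -2.18 to -1.49, adjusted p = 1.20e-05).

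Psph (100678, chromosome 5 from 129765558 to 129787443) encodes phosphoserine phosphatase, which releases free serine. It stood at 28.2, 21.8 and 18.9 CPM in del, and at 115, 120.0 and 122 CPM in fl. The counts behind these levels were 107, 46 and 70 reads in del and 1007, 1072 and 834 in fl. Psph had the greatest fall of the 8, with a log2 fold change of -2.37 ± 0.17 (95% interval -2.75 to -1.99, adjusted p = 4.44e-06), and 3.75% of all tested genes had a lower value. Its 5′ end overlaps that of Cct6a, a chaperonin gene on the opposite strand. Cct6a averaged 357 ± 87.6 CPM in del and 528 ± 15.9 CPM in fl (SD, n = 3 each), a log2 fold change of -0.56 ± 0.19. The strand setting of the read counting was not known here.

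The 95% intervals of Phgdh (-1.58 to -0.84) and Psph (-2.75 to -1.99) do not meet, and the Psat1 interval overlaps both. The Phgdh interval also overlaps those of Shmt1, Mthfd1, Shmt2 and Mthfd2, and differences in fold change between members were not tested. The log2 ratio of Psph to Phgdh, from CPM with a pseudocount of 1, averaged -2.67 ± 0.39 in del and -1.53 ± 0.19 in fl (SD, n = 3 each), and that of Psph to Psat1 averaged -2.22 ± 0.16 in del and -1.71 ± 0.0046 in fl. These 2 ratios were chosen after the values were seen and carry no test. Added together, the 3 transcripts came to 283 ± 30.9 CPM in del, 32.9% of the 860.3 ± 56.3 CPM in fl.

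**Figure D2:**
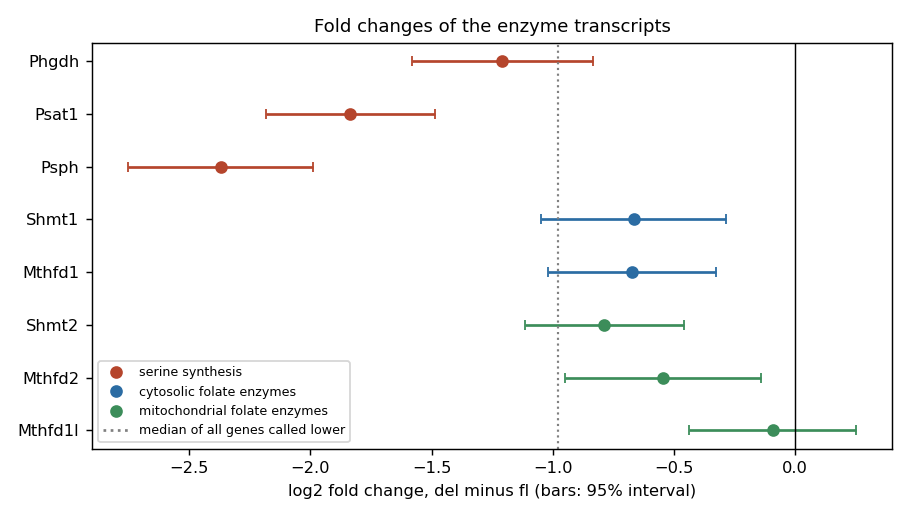
Log2 fold change (x axis, del minus fl) of each tested enzyme transcript with its 95% interval, coloured by role, beside the median of all genes called lower (dotted line, -0.98). The intervals of Psat1 and Psph lie wholly below that line, the 5 folate enzymes have point values above it, and the interval of Mthfd1l includes 0.

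In the cytosol, Shmt1 and Mthfd1 were lower in del by nearly the same amount. Shmt1 (20425, chromosome 11 from 60788897 to 60811265), the cytosolic serine hydroxymethyltransferase, was at 38.5, 39.8 and 34.6 CPM in the del libraries, against 47.9, 60.3 and 70.7 CPM in fl. The groups did not overlap, and fl replicate 1 came closest to del. The log2 fold change was -0.67 ± 0.17 (adjusted p = 0.00671). Mthfd1 (108156, chromosome 12 from 76254406 to 76319820) encodes the trifunctional enzyme that interconverts folate-bound carbon units. Its levels were 68.7, 55.4 and 73.0 CPM in the del libraries, against 93.9, 116 and 106 CPM in fl. Again no del library reached the lowest fl library, and the log2 fold change was -0.67 ± 0.15 (adjusted p = 0.00377).

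In mitochondria, Shmt2 and Mthfd2 were lower in del and Mthfd1l was not called. Shmt2 (108037, chromosome 10 from 127517123 to 127522444), the mitochondrial counterpart of Shmt1, was at 122, 109 and 116 CPM in the del libraries, against 177, 194 and 230.0 CPM in fl. The del libraries lay close together and below every fl library. Its log2 fold change was -0.79 ± 0.15 (adjusted p = 0.00114), and -0.44 (adjusted p = 0.0268) once the length and GC trend was taken out. The 3′ end of Shmt2 overlaps Ndufa4l2 on the opposite strand, which had no count in any library. Other RefSeq genes overlap the spans of Mthfd1 (Gm40443, Gm40444), Mthfd1l (Gm16074, Gm25515, Gm40591) and Aldh1l2 (Gm51778). Their levels are not given here.

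Mthfd2 (17768, chromosome 6 from 83305704 to 83326011) encodes the mitochondrial dehydrogenase and cyclohydrolase that is high in embryos and tumours. It was at 328, 354 and 247 CPM in the del libraries, against 525, 417 and 411 CPM in fl. The groups did not overlap, but fl replicates 2 and 3 stood not far above del replicate 2. The log2 fold change was -0.55 ± 0.18 (adjusted p = 0.0233). Leaving out del replicate 3 (-0.41, adjusted p = 0.0633) or fl replicate 1 (-0.43, adjusted p = 0.0579) ended the call, as did taking out the length and GC trend (-0.32, adjusted p = 0.152).

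Mthfd1l (270685, chromosome 10 from 3972892 to 4167081) encodes the mitochondrial synthetase that releases formate. Its levels were 64.5, 51.6 and 70.8 CPM in del and 61.7, 65.9 and 73.0 CPM in fl, so that the groups overlapped. The log2 fold change was -0.093 ± 0.15 (adjusted p = 0.611), with a 95% interval of -0.44 to 0.25. Aldh1l2 (216188, chromosome 10 from 83487447 to 83534146), a mitochondrial formyl-folate dehydrogenase, had 0 counts in all 6 libraries. A count of 0 allows a level of up to 0.802 to 1.41 CPM in a del library and 0.313 to 0.458 CPM in an fl library (3 counts of the total, counting error only).

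The mitochondrial and cytosolic enzymes run the same kinds of step, so their transcripts were compared as log2 ratios of CPM plus 1 within each library. The ratio of Mthfd1l to Mthfd1 was -0.090, -0.10 and -0.043 in del, against -0.60, -0.81 and -0.53 in fl. Each del library was above each fl library, with a difference of 0.57 (exact two-sided permutation p = 0.1, the smallest that 3 against 3 libraries can give, and 0.3 adjusted over 3 pairs). The ratio of Shmt2 to Shmt1 was 1.65, 1.43 and 1.72 in del, against 1.86, 1.67 and 1.69 in fl. These overlapped, with a difference of -0.14 (exact permutation p = 0.4, adjusted p = 0.6). The ratio of Mthfd2 to Mthfd1 was 2.24, 2.65 and 1.74 in del, against 2.47, 1.83 and 1.95 in fl (difference 0.13, exact permutation p = 0.8, adjusted p = 0.8). The last 2 differences changed sign under 1 setting each: the difference for Shmt2 was 0.049 in libraries thinned to the smallest total, and that for Mthfd2 was -0.094 without del replicate 2.

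**Figure D3:**
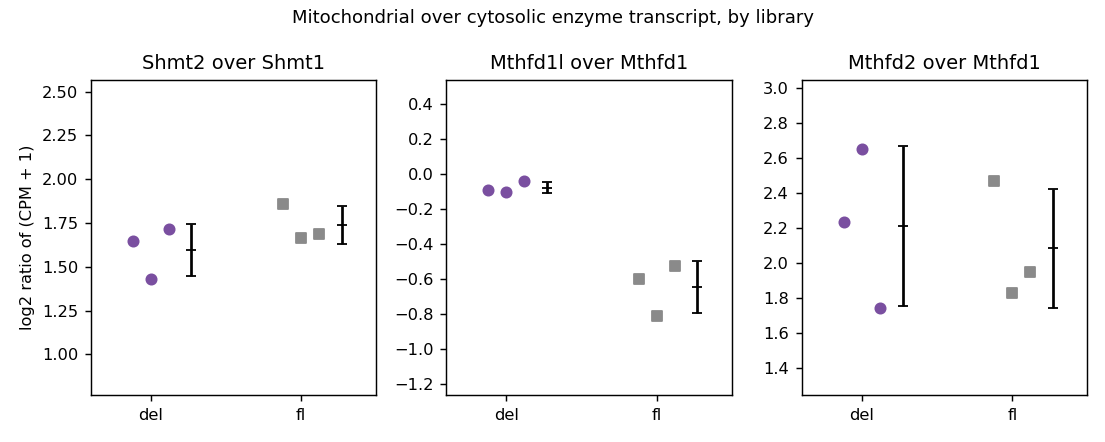
Log2 ratio of a mitochondrial to a cytosolic enzyme transcript (y axis, from CPM plus 1) in the 3 del libraries (circles) and the 3 fl libraries (squares), with mean and SD. The groups separate for Mthfd1l over Mthfd1 (-0.10 to -0.043 in del and -0.81 to -0.53 in fl) and overlap for the other ratios.

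The counts of other pathway genes stand beside the 32.6% lower and 32.5% higher among all tested genes. Of 10 tested genes of folate uptake and interconversion, 6 were lower in del and 2 higher. Slc19a1, the reduced folate carrier, was at 29.8, 34.1 and 27.3 CPM in the del libraries, against 84.5, 70.2 and 97.5 CPM in fl (log2 fold change -1.48 ± 0.17, adjusted p = 6.31e-05). Fpgs, which adds the glutamate tail that keeps folate in cells, had a log2 fold change of -0.89 ± 0.13 (adjusted p = 0.000298). Aldh1l1, the cytosolic counterpart of Aldh1l2, had 11, 7 and 7 counts in the del libraries and 2, 3 and 0 in the fl libraries (log2 fold change 3.55 ± 0.60, adjusted p = 0.000661). Folr1, Folr2, Ggh, Mthfd2l and Ftcd had no count at all.

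Of the glycine cleavage genes, Gcsh (-0.75 ± 0.13, adjusted p = 0.000754) and Dld (-0.33 ± 0.13, adjusted p = 0.0492) were lower, and Gldc and Amt had too few counts to test. Among the mitochondrial serine carriers, Sfxn3 was lower (-1.20 ± 0.20, adjusted p = 0.000538). Sfxn1, the main carrier of serine into mitochondria, averaged 548 ± 110.3 CPM in del and 574 ± 10.2 CPM in fl (log2 fold change -0.068 ± 0.16, adjusted p = 0.733), and Sfxn2 was not called (0.67 ± 0.29, adjusted p = 0.0643). Of 8 tested genes of the methionine cycle and transsulfuration, 3 were lower and 1 higher. Cth, which makes cysteine from cystathionine, was at 11.6, 9.001 and 11.6 CPM in the del libraries, against 42.3, 28.4 and 35.2 CPM in fl, and Ahcy, which clears S-adenosylhomocysteine, had a log2 fold change of -1.49 ± 0.19. Mtr, the folate-dependent methionine synthase, was the gene that was higher (1.21 ± 0.22, adjusted p = 0.00112).

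Of 13 tested genes that take up or use serine and glycine, 5 were lower and 4 higher, shares near those of all tested genes (32.6% and 32.5%). The neutral amino acid carrier gene Slc1a4 was at 2.63, 4.26 and 4.05 CPM in the del libraries, against 15.4, 15.9 and 19.2 CPM in fl (log2 fold change -2.23 ± 0.23, adjusted p = 3.69e-05). Serinc3 and Serinc5, which encode membrane proteins named for serine incorporation into lipids, rose by 2.17 ± 0.14 and 2.80 ± 0.28 on the log2 scale.

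**Figure D4:**
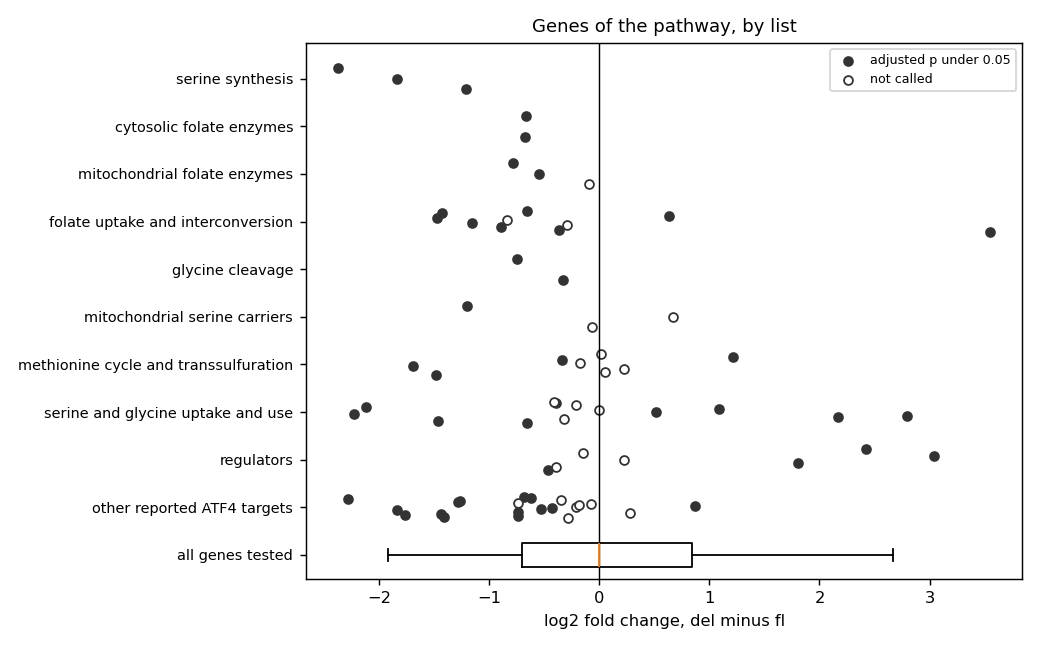
Log2 fold change (x axis, del minus fl) of the tested genes of each list (rows), filled where the adjusted p was under 0.05, above a box for all 10260 tested genes (median line, quartiles, and whiskers from the 5th to the 95th percentile). The 3 serine synthesis genes lie at -1.21 or lower, as do genes of other lists such as Trib3 (-2.28), Slc1a4 (-2.23) and Cth (-1.69). Unlike the serine synthesis list, each other list also holds values nearer 0 than -1.21.

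Of 7 tested transcription factor genes listed as regulators, 1 was lower and 3 were higher, where 32.6% and 32.5% of all tested genes were. Whether each acts on the enzyme genes was not tested. Myc was at 452, 422 and 395 CPM in del and 454, 417 and 534 CPM in fl, and was not called (-0.15 ± 0.15, adjusted p = 0.399). Mycn had 1 count in all libraries together. Atf4 was at 646, 660.4 and 523 CPM in the del libraries, against 887, 826 and 808 CPM in fl, and was lower (-0.46 ± 0.14, adjusted p = 0.0166). Nfe2l2, the gene of NRF2, averaged 189 ± 45.6 CPM in del and 35.3 ± 9.20 CPM in fl (2.42 ± 0.23), Cebpb rose by 1.80 ± 0.14 and Ddit3, the gene of the stress factor CHOP, by 3.04 ± 0.25. Atf5 (-0.39 ± 0.36, adjusted p = 0.360) and Cebpg (0.22 ± 0.16, adjusted p = 0.255) were not called. Of 21 other reported ATF4 targets tested, 13 were lower and 1 was higher, with a median of -0.69, beside 32.6% lower among all tested genes. The pseudokinase gene Trib3 was at 8.69, 4.74 and 4.60 CPM in the del libraries, against 28.9, 30.8 and 30.9 CPM in fl. Ddit4 had a log2 fold change of -1.44 ± 0.15, and Asns, the asparagine synthetase gene, one of -1.41 ± 0.15 (adjusted p = 5.09e-05). Nupr1 was the target of this list that was higher (0.87 ± 0.33, adjusted p = 0.0442). Ddit3, given above with the regulators, is also a reported ATF4 target and is not among the 21.

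The tested genes whose profile lay nearest to the mean profile of the 8 members were Prelid1, Lamtor5, Taf5l, Eif4h and Vasp. They were chosen from 6036 genes of at least 20 CPM by Euclidean distance between centred log2(CPM + 1) values over 6 libraries (0.0671 to 0.129). The members themselves lay 0.348 to 1.65 from that mean, farther than any of these genes, so the mean profile is close to no single member. Their log2 fold changes were -1.06 to -0.97.

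The 6 main mature microRNAs of the deleted cluster have 4 seeds, which are shown because direct targets of a microRNA usually carry a match to its seed. Products of the other strand of each hairpin were not searched. The sequences are those of RefSeq (GRCm38.p6, chromosome 14), with the seed, bases 2 to 8, in capitals.
miR-17-5p: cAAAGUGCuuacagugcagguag
miR-20a-5p: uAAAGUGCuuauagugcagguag
miR-18a-5p: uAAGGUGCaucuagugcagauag
miR-19a-3p: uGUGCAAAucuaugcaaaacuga
miR-19b-3p: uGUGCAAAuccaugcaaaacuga
miR-92a-3p: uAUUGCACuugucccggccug

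The longest 3′ UTR of each member in the GENCODE annotation of GRCm38 was searched for the complement of these seeds (GCACTTT for miR-17 and miR-20a, GCACCTT for miR-18a, TTTGCAC for miR-19a and miR-19b, GTGCAAT for miR-92a). A single match was found among the 9 members, to the miR-19 seed in Shmt2, where 29.4% of 20026 genes held at least 1 of the 4 heptamers and 11.6% held that of miR-19. The member UTRs had a median length of 666 bases, against 997 for all genes. The match lies on the minus strand at bases 127517465 to 127517471 of chromosome 10, at position 318 of a UTR of 666 bases, and is printed in capitals with 9 bases on each side.
Shmt2 site: ggttataggTTTGCACcatgacacc

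For the members without a match, these letters are not in the UTR searched.

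Promoter windows of RefSeq (GRCm38.p6), from 250 bases before to 50 after a start site, were found for 8 members, all but Aldh1l2. Neither the E-box CACGTG nor the ATF4 element TGATGNAA, on either strand, occurred in any of their 9 windows. Over all 32851 windows, 7.15% held the E-box and 3.97% the ATF4 element. The CCAAT box, CCAAT on either strand, was looked up after these gave no match. It occurred in 6 of the 9 member windows (of Phgdh, Psat1, Psph, Shmt1, Mthfd1 and Mthfd2, with 1 of the 2 Psat1 windows) and in 37.4% of all windows. The bases before the start are shown with CCAAT on either strand in capitals. They are those of the serine genes whose window holds no exon of another gene, and of Mthfd1l, the tested member not called. Of the 2 Psat1 windows, the one that overlaps an exon of Psat1, and holds no CCAAT box, is not shown. The stretches shown lie at chr3:98339991-98340219 (minus strand, 229 bases), chr19:15925060-15925309 (minus strand) and chr10:3972825-3973074 (plus strand).
Phgdh: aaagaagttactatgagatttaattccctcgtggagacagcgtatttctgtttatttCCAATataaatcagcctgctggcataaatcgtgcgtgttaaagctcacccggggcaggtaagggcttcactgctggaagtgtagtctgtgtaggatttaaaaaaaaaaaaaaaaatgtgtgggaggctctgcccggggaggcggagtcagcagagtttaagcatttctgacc
Psat1: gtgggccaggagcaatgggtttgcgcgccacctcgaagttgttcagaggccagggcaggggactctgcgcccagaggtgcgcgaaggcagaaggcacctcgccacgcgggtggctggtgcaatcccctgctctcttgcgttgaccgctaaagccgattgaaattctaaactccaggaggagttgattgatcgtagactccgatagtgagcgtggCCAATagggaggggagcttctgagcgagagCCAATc
Mthfd1l: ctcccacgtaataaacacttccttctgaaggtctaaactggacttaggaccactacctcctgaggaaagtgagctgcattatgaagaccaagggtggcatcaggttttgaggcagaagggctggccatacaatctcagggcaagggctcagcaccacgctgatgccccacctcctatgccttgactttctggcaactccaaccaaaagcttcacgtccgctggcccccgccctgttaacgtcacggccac

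These stretches hold 1, 2 and 0 such boxes in the order printed. The window of Shmt2, which was called lower in del, holds no CCAAT box either. The Phgdh stretch stops where the GENCODE annotation places an exon of the gene.

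**Figure D5:**
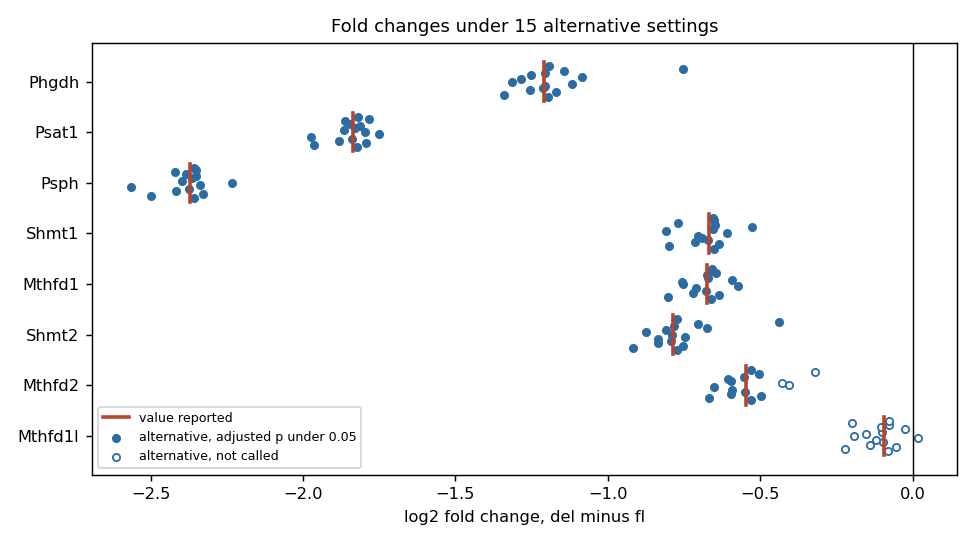
Log2 fold change (x axis, del minus fl) of each member as reported (bar) and under 15 alternative settings (points, filled where the adjusted p was under 0.05). All points of Phgdh, Psat1, Psph, Shmt1, Mthfd1 and Shmt2 are filled, 3 points of Mthfd2 are open, and those of Mthfd1l are open on both sides of 0.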

How the data were processed

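RNA of 6 libraries was reverse transcribed with barcoded oligo-dT primers, pooled and made into strand-specific 3′ libraries, per the labels' protocols. The authors deposited 1 table of unscaled counts, with a row for each gene. STAR, HTSeq and mm10 are named in the submitters' processing notes, with versions and settings not given in the sources used here. RefSeq (GRCm38.p6, the assembly of mm10) gave symbols for 23969 of 24052 gene numbers. The other 833 rows have RefSeq accessions, none of them of a member, and hold at most 0.00391% of a library's counts.

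edgeR 4.0.16 (R 4.3.3) kept 10260 genes by filterByExpr, scaled libraries with TMM and ran the robust quasi-likelihood F test with no term but group. P-values were adjusted (Benjamini-Hochberg) over the 10260 genes, and every adjusted p for a gene comes from edgeR unless DESeq2 is named. The fit was tested on simulated counts in which few genes were changed, whereas 6676 were called here. That test therefore does not cover so broad a change. Standard errors come from the F statistic. Replicates of a group differed by more than sampling noise (chi-square per degree of freedom 7.35 to 30.5). Alternatives were RLE, upper-quartile and no scaling factors, DESeq2 1.42.0, other count filters, thinning to 2121796 counts, leaving out each library, a replicate block and, added after seeing the data, removal of the length and GC trend. The members were given by name, and they and the lists were chosen with earlier results of these data known. Of each other pathway list, up to 3 genes of smallest adjusted p and every regulator were named, and of the marker lists the defining markers. Mir17hg, Nupr1, Cct6a, Ndufa4l2, Fcgr3, Cd14, Cd2, Cd5, Lck, Ms4a1 and genes at 0 were named after their values were seen. 1 listed marker is not reported here.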

Additional observations from a re-analysis of the deposited data

How the results depend on the processing

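Under all 15 alternatives, Phgdh, Psat1, Psph, Shmt1, Mthfd1 and Shmt2 stayed lower in del with an adjusted p under the threshold, from edgeR or DESeq2. Their log2 fold changes ran from -1.34 to -0.75 for Phgdh, -1.98 to -1.75 for Psat1, -2.56 to -2.23 for Psph, -0.81 to -0.53 for Shmt1, -0.80 to -0.57 for Mthfd1 and -0.92 to -0.44 for Shmt2. Mthfd2 ran from -0.67 to -0.32 and lost its call under 3 alternatives. Mthfd1l ran from -0.22 to 0.018, was called under none, and ran from -0.19 to 0.018 when 1 library was left out, the positive value being that without del replicate 2. Removing the length and GC trend gave the values nearest 0 for Phgdh, Shmt2 and Mthfd2, and the cause was not tested. That setting moved the median of all genes to -0.10, and upper-quartile factors moved it to -0.13. They gave 2587 higher and 3413 lower genes (43.1% higher) and 2965 higher and 3767 lower (44.0% higher), against 3333 and 3343 as reported. The members called lower numbered 6 or 7 under every alternative, and all genes called numbered 5488 to 7286, against 6676.

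Leaving out 1 library at a time gave 6049 to 6479 calls. It gave changes of the log2 ratio of -0.20 to -0.058 for Shmt2 over Shmt1, 0.49 to 0.63 for Mthfd1l over Mthfd1 and -0.094 (without del replicate 2) to 0.36 for Mthfd2 over Mthfd1. In thinned libraries the Shmt2 ratio change was 0.049 and not -0.14. With 3 libraries or fewer a group, no p for a ratio could pass the threshold.

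Same-numbered libraries of del and fl did not clearly deviate together (correlations 0.083, -0.039 and -0.020). These values show no pairing by number, but 3 libraries a group cannot exclude it. Not every library correlated best with its own number. With the replicate number as a block, 6510 genes and 7 members were called. Depth limits the del libraries most: Psph rested on 46 reads in del replicate 2.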
